A study of Mus musculus with 4 samples.

Results

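The mitochondrial ribosomal protein genes were taken as all genes whose symbol begins with Mrpl or Mrps, followed by a number and at most 1 letter. This rule found 78 of the 50600 genes in the tables. They comprised 49 Mrpl genes, whose names place the protein in the large subunit, and 29 Mrps genes, named for the small subunit. The data were RNA-seq counts of 4 libraries made from T-helper 2 cells, CD4 T cells of the type-2 immune response. Primary cells of the mouse strain C57BL/6NJ were used, and the libraries formed 1 group, biological replicates 1 to 4, with no genetic change, treatment or control group named. Sex was not recorded and age was given as unknown. One donor record is attached to every library, and no label says that different mice were used for the replicates. A p-value here thus reflects the spread among these samples alone, and that spread may be technical.

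Mitochondrial ribosomes translate the few mRNAs made from mitochondrial DNA, which encode core subunits of the oxidative phosphorylation complexes. Their ribosomal RNAs are also made in the mitochondrion, but the ribosomal proteins are encoded in the nucleus, made in the cytosol and imported. Some of these proteins have counterparts in bacterial ribosomes and others exist only in mitochondria.

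A count in these tables is that of the strand the counting selected. The headers give a strand setting of 1, and the strand of the library kit is not given in the sources used here, so counts are not read as expression of the named gene. Total counts were 1804217 to 2711948 per library. CT010467.1, a ribosomal RNA gene, held 18450 and 21080 counts in replicates 1 and 2, 776235 in replicate 3 and 312900 in replicate 4. Genes with exon bases opposite exons of another gene held 92.2% to 95.9% of the counts. mt-Nd6, encoded by the light strand of mitochondrial DNA, had 6.13 to 8.79 times the summed counts of the 12 coding genes of the heavy strand. The mitochondrial ribosomal RNAs had 37, 55, 95 and 13 counts for mt-Rnr1 and 55, 55, 147 and 24 for mt-Rnr2 in replicates 1 to 4. All 9 T cell markers had counts, with sums of 211, 255, 189 and 63. Of B cell markers, Cd79a had 9, 15, 12 and 12 counts, and Cd79b and Ms4a1 were at 0 throughout. Of 4 macrophage and monocyte markers, Csf1r had 983 to 1026 counts and Cd68 13, 6, 7 and 18, and Lyz2 and Adgre1 were at 0. Only 3 of these 4 markers have no exon base opposite another gene. Of 2 CD8 T cell markers, Cd8b1 had 4, 3, 3 and 3 counts and Cd8a was at 0. Replicate 4 stood apart from the other libraries at genes without exon bases opposite another gene, as described for the members below.

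The members lay on 17 chromosomes of mm10 and had exon lengths of 566 to 8631 bases, with a median of 2080.5. By the exon coordinates in the tables, 52 members share no exon base with a gene on the other strand, 4 share between 2 and 24 bases, and 22 share at least 50. The share with at least 50 bases was 28.2% of members, against 20.2% of 21764 protein-coding genes and 14.9% of all genes. It was 15 of 49 large subunit members and 7 of 29 small subunit members. The 22 members form 24 pairs with genes opposite them, of which 13 are head to head, with overlapping 5′ ends, and 8 tail to tail. The head-to-head pair of Mrpl46 and Mrps11, both members, is counted once from each side. In 2 pairs the opposite gene lies inside the member, and in 1 the member lies inside the opposite gene.

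Promoter windows of 5 members in head-to-head pairs are shown. Those of Mrps11, Mrpl18, Mrpl27 and Mrps7 hold the RefSeq starts of both genes of the pair, and that of Mrpl9 holds the start of Mrpl9 and a match to the NRF1 site. The windows were taken from RefSeq (GRCm38.p6), run from 250 bases before to 50 after the start of the member, and are written 5′ to 3′ on its strand. Capitals mark a match on either strand to CCGGAAG, a core of ETS factor sites, to AAGATGGC, a core of YY1 sites, or to the palindromic site of NRF1, whose letters are those in capitals in the window of Mrpl9. The windows are Mrps11 at chr7:78782881-78783180 on the plus strand, Mrpl18 at chr17:12916042-12916341 on the minus strand, Mrpl27 at chr11:94653541-94653840 on the plus strand, Mrps7 at chr11:115603890-115604189 on the plus strand and Mrpl9 at chr3:94443086-94443385 on the plus strand.
Mrps11: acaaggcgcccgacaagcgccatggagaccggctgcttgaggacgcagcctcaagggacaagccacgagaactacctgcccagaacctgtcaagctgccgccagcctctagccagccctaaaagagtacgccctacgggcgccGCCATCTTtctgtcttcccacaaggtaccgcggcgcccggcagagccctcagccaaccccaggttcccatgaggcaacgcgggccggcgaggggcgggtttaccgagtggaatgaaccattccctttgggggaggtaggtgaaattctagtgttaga
Mrpl18: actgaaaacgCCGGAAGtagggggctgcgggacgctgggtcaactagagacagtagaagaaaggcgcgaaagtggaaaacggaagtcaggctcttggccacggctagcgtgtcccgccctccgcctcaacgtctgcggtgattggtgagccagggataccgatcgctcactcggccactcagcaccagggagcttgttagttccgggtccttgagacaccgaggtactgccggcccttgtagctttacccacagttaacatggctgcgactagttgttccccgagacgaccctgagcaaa
Mrpl27: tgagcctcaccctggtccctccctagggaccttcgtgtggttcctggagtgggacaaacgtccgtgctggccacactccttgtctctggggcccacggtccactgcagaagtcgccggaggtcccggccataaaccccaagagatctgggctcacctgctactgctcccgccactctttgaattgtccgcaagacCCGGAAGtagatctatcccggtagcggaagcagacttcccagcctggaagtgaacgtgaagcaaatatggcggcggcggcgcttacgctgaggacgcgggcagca
Mrps7: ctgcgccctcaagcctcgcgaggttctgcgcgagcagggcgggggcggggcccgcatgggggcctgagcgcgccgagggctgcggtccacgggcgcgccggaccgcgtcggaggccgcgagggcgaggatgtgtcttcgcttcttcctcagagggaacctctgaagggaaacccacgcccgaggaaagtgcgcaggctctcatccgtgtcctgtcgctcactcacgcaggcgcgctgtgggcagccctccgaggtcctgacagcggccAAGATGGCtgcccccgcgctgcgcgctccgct
Mrpl9: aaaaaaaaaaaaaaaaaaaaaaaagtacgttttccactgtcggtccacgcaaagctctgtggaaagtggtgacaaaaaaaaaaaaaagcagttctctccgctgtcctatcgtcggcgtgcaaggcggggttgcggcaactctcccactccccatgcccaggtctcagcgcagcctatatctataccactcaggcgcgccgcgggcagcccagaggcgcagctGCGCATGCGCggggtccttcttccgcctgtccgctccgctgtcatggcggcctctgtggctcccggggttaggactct
The RefSeq start of Mrpl46, itself a member, lies 42 bases upstream of that of Mrps11 on the other strand. The starts of Eme1, Gga3 and Tcp1 lie 48, 224 and 238 bases upstream of those of Mrpl27, Mrps7 and Mrpl18. Each of the 5 windows holds a match to 1 of the 3 motifs only.

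Windows were found for 69 of the 78 members. CCGGAAG or its reverse complement was in 26 of them (37.7%), against 9.93% of 27025 genes with a window and 13.4% of 16469 protein-coding genes. AAGATGGC was in 12 (17.4%), against 3.19% of genes and 3.64% of protein-coding genes. The NRF1 palindrome was in 3 (4.35%), those of Mrpl9, Mrpl32 and Mrpl39, against 1.07% and 1.52%. In all, 37 members had at least 1 of the motifs and 32 had none. The windows of Mrps12, Mrps18a and Mrps27 held both CCGGAAG and AAGATGGC, and that of Mrpl32 held AAGATGGC and the NRF1 palindrome. No 2 different motifs overlapped in a member's window. CCGGAAG was in 16 of 46 windows of members without shared bases and in 6 of 19 of members with at least 50. These are matches of letters, and binding was not measured.

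Counts of the members were concentrated in a few genes. Every member had a count in at least 1 library, and the 78 together had 7832, 8060, 8511 and 8129 counts in replicates 1 to 4. The sum was 3898 ± 582 CPM (counts scaled to the same library total, SD, n = 4), and 4394 ± 16.5 on totals without CT010467.1. Mrpl47 and Mrps25 alone held 59.7% to 62.8% of it, and the leading 7 members, each with at least 50 shared exon bases, 87.9% to 92.0%.

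**Figure D1:**
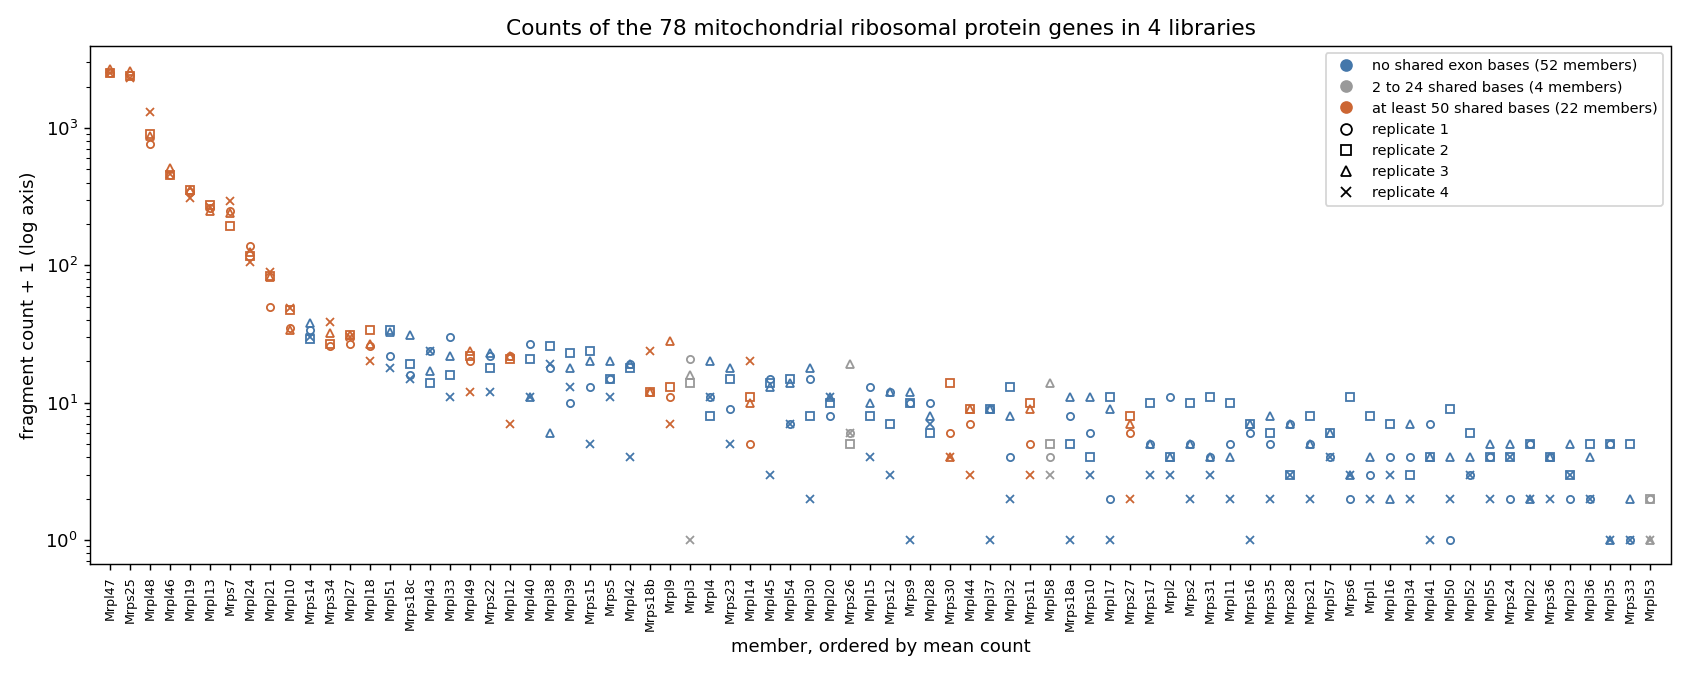
Fragment counts plus 1 (log axis) of the 78 members in each of the 4 libraries, ordered by mean count and coloured by exon bases shared with genes on the other strand. The 10 leading members all share at least 50 bases, and members without shared bases have mean counts of at most 31.8.

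Of the large subunit members, Mrpl47 (chr3:32725397-32737605, minus strand), a protein with a bacterial counterpart, had 2503, 2513, 2667 and 2531 counts. This is 415 ± 47.7 TPM (count over exon length, scaled to the same library total, SD, n = 4), the highest level per length of all members. Its 3′ end shares 452 exon bases with Actl6a, a subunit of chromatin remodelling complexes, which had 123, 117, 124 and 116 counts. Its 5′ end shares 616 bases with Ndufb5, a subunit of respiratory complex I, which had 10, 9, 11 and 0. The 4 libraries did not overlap in either pair, with Mrpl47 at 21.3 times the summed count of Actl6a (95% exact conditional binomial interval 19.4 to 23.4, for counting error only). Here and below, ratios within a pair are of counts and not of levels per length.

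Mrpl48 (chr7:100545751-100608301, minus strand), a protein of the mitochondrial large subunit without bacterial counterpart, had 758, 896, 879 and 1297 counts, or 83.6 ± 18.0 TPM. It was highest in replicate 4. Rab6a, a small GTPase of Golgi transport that shares 708 bases head to head with it, had 10, 20, 8 and 11 counts. Mrpl46 (chr7:78775236-78783531, minus strand), likewise confined to mitochondrial ribosomes, had 454, 451, 512 and 462 counts, or 238 ± 22.1 TPM. It pairs head to head over 173 bases with another member, Mrps11 (chr7:78783119-78792989, plus strand), a small subunit protein with a bacterial counterpart, whose window is printed above. Mrps11 had 4, 9, 8 and 2 counts, so that the large subunit gene of this pair held 81.7 times the count of the small subunit gene (interval 54.3 to 129). The libraries of the pair did not overlap.

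Mrpl19 (chr6:81957851-81965958, minus strand) had 343, 354, 355 and 311 counts, or 45.1 ± 7.22 TPM. The gene facing its 3′ end over 1962 bases, Gcfc2, had 356, 323, 323 and 334 counts. The 2 genes overlapped across libraries, and this was the only pair of the 24 in which neither gene was higher in all 4 libraries. The ratio of Gcfc2 to Mrpl19 was 0.980 (interval 0.908 to 1.06). Mrpl21 (chr19:3282901-3292837, plus strand) had 49, 83, 81 and 89 counts, or 26.6 ± 5.75 TPM, against 28, 21, 36 and 34 for Ighmbp2, a helicase gene sharing 117 bases head to head. Mrpl13, named here after its values were seen, had 260, 274, 249 and 263 counts, and Mtbp, which shares 330 bases at its 5′ end, 21, 26, 29 and 27. In both pairs the member was above its opposite gene in each library.

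In other large subunit pairs the count lay on the opposite gene. Mrpl24 (chr3:87919506-87923672, plus strand) had 137, 116, 124 and 105 counts, or 38.6 ± 8.22 TPM. Rrnad1, which shares 594 bases at the 3′ end and also lies opposite Isg20l2, had 2879, 2857, 2895 and 2851. Mrpl12 (chr11:120484613-120489065, plus strand), the stalk protein of the large subunit, had 21, 20, 21 and 6 counts. Gm16755, an annotated lincRNA gene that lies inside Mrpl12 on the other strand and shares 200 exon bases, had 5090, 5361, 4925 and 5176 counts. It was the highest of all genes opposite a member and exceeded Mrpl12 302-fold (interval 238 to 389).

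Mrpl18 (chr17:12911349-12916345, minus strand), the protein related to bacterial 5S rRNA-binding L18 proteins, had 25, 33, 26 and 19 counts. Tcp1, a subunit of the cytosolic chaperonin, had 2640, 2822, 2948 and 3244, shares 141 bases head to head with it and also lies opposite Acat3. Mrpl9 (chr3:94443318-94451130, plus strand) had 10, 12, 27 and 6 counts and Oaz3, an ornithine decarboxylase antizyme gene sharing 157 bases head to head and also lying opposite Tdrkh, had 1389, 1510, 1676 and 1734. Mrpl27 (chr11:94653767-94660089, plus strand) had 26, 30, 30 and 29 counts. Eme1, a subunit of a structure-specific DNA endonuclease that shares only 75 bases with it at the 5′ end and also lies opposite Lrrc59, had 1426, 1375, 1400 and 1417. Replicates of Mrpl27 and of Eme1 lay close together, and no library of a member overlapped its opposite gene in these pairs.

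Among the small subunit members, Mrps25 (chr6:92169525-92184033, minus strand), found in mitochondrial but not bacterial ribosomes, had 2414, 2406, 2621 and 2325 counts, or 267 ± 32.0 TPM. Nr2c2, a nuclear receptor gene, faces it at the 3′ end over 4590 bases, the longest overlap of the set, and had 239, 220, 234 and 217 counts. Nr2c2 also lies opposite Gm44249. Mrps25 was above Nr2c2 in each library, by 10.7-fold over the summed counts (interval 10.03 to 11.5).

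Mrps7 (chr11:115603925-115608036, plus strand), the counterpart of a bacterial protein that starts assembly of the small subunit head, had 247, 193, 240 and 291 counts, or 83.7 ± 13.9 TPM. Its count was highest in replicate 4, but its TPM was highest in replicate 1 (96.8, against 94.4 in replicate 4). Gga3, a clathrin adaptor gene sharing 127 bases head to head, had 133, 136, 145 and 285 counts, with the highest count also in replicate 4. Mif4gd, which shares 119 bases at the 3′ end, had 10, 11, 5 and 6. Mrps7 was above both in each library, and in replicate 4 it was close to Gga3.

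Mrps34 (chr17:24895116-24897502, plus strand) had 25, 26, 31 and 38 counts. It lies within Mapk8ip3, a scaffold gene of the JNK pathway that shares 1309 exon bases with it, also lies opposite Nme3, and had 3086, 3377, 3734 and 4263 counts. Mrps34 also shares 763 bases with Nme3 on its own strand, so fragments of these 2 genes are not fully separable. Mrps18b (chr17:35910379-35916389, minus strand), 1 of 3 paralogs related to bacterial S18, had 11, 11, 11 and 23 counts. Gm16279, annotated as an antisense gene, shares 638 bases with it at the 3′ end, also lies opposite Atat1, and had 1607, 1631, 1801 and 1765. Mrps27 (chr13:99344786-99415561, plus strand), a pentatricopeptide repeat protein, had 5, 7, 6 and 1 counts, while 6430562O15Rik, a noncoding transcript inside it sharing 417 bases, had 1162, 1140, 1166 and 1269. Each opposite gene was above its member in every library.

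Over the 24 pairs the opposite gene was higher in all 4 libraries in 14 and the member in 9. The pair of Mrpl46 and Mrps11 is counted on both sides, here and by layout below. The same was not counted over all pairs of genes on opposite strands, so it is not read as particular to the members. The opposite genes summed to 22748, 23693, 24187 and 26292 counts, and the 22 members to 7360, 7532, 7964 and 7881. Without Mrpl46 and Mrps11, which are in both sums, the opposite genes summed to 22290, 23233, 23667 and 25828. Opposite genes annotated as noncoding, in 4 pairs, had mean counts of 1117 to 5138, and the coding ones, in 20 pairs, of 5.75 to 3615 with a median of 190.5. Of the 22 members, 21 had an opposite gene with more than 3 counts in each library. The share among all 7552 genes with at least 50 shared bases was 49.4%. It was 88.2% for cytosolic ribosomal protein genes and 86.4% for nuclear oxidative phosphorylation genes of that class. In the other gene lists described below it was 80% to 100%, so a high share is not particular to the members. Where the opposite gene faces no other gene, 12 of 13 members had such counts opposite them. Head-to-head pairs were split, with the opposite gene higher in 7 and the member in 6, and tail-to-tail pairs likewise, in 4 and 3.

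**Figure D2:**
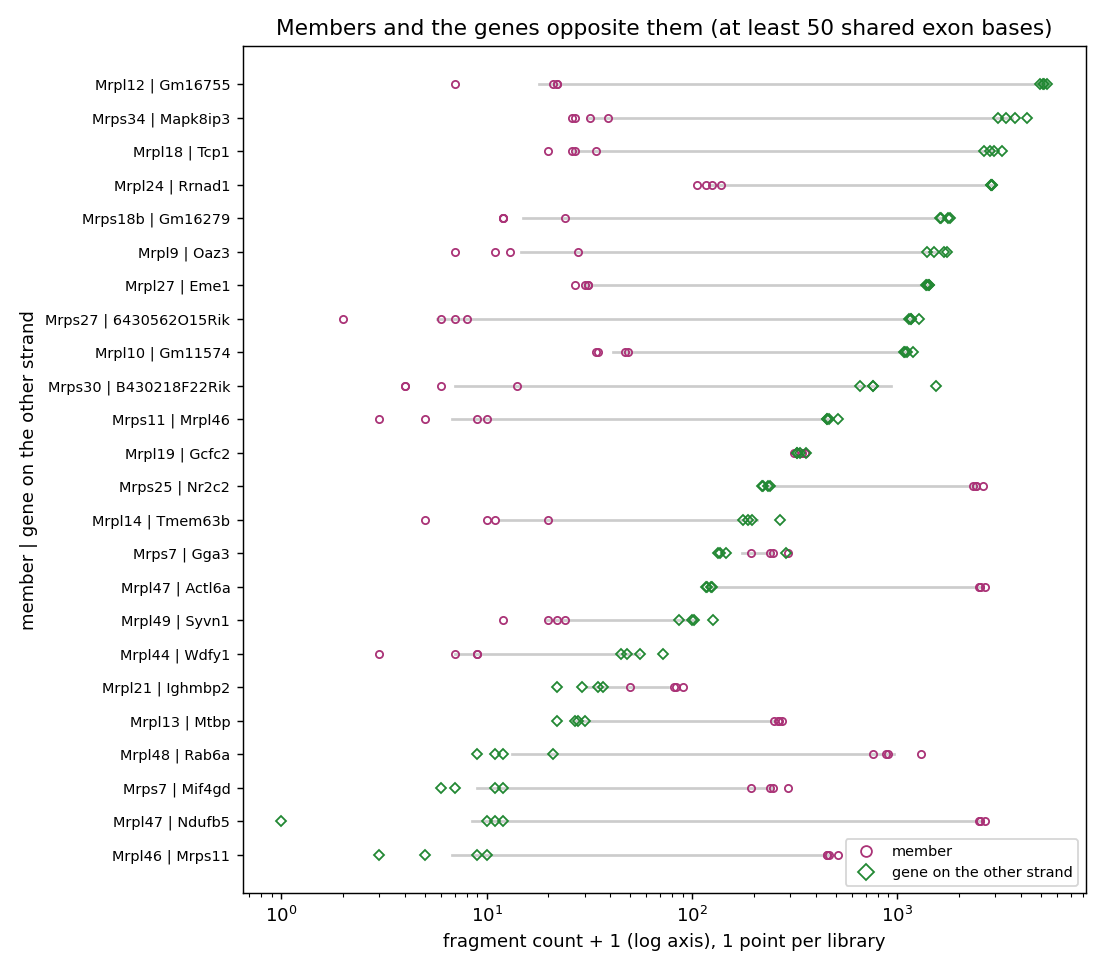
Counts plus 1 (log axis) of each member (circles) and of the gene on the other strand sharing at least 50 exon bases (diamonds), 1 point per library, ordered by mean count of the opposite gene; the grey line joins the 2 means. Mrpl46 and Mrps11 appear as member and as opposite gene, and Mrpl19 and Gcfc2 are the pair with overlapping points in which neither is higher in all 4 libraries.

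The 52 members without shared bases had few counts. Their mean counts ran from 1.25 to 31.8 with a median of 4.88. Small subunit gene Mrps14 (chr1:160195215-160202170), with a bacterial counterpart, led them with 33, 28, 37 and 29 counts, or 6.97 ± 0.928 TPM. Mrpl51 (chr6:125191801-125196269), a mitochondria-specific large subunit protein, had 21, 33, 32 and 17 counts, and Mrpl33 (chr5:31596935-31664384), which has a bacterial counterpart, 29, 15, 21 and 10. Mrpl43 (chr19:45005014-45006442) had 23, 13, 16 and 23 counts, or 11.1 ± 3.55 TPM. Mrps22 (chr9:98588730-98601660), a mitochondria-specific small subunit protein, had 21, 17, 22 and 11. Replicate 4 was the lowest of the 4 libraries in Mrpl51, Mrpl33 and Mrps22, and not in Mrps14 or Mrpl43. Mrpl51 and Mrpl33 share exon bases on their own strand with Mir3098 and Gm43809, both at 0 in all libraries.

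Further members were named for their known roles. Mrps18c (chr5:100798627-100804471), the paralog that takes the place of bacterial S18, had 15, 18, 30 and 14 counts, or 12.5 ± 3.39 TPM. Mrps18a (chr17:46110986-46128910), the paralog placed in the large subunit despite its name, had 7, 4, 10 and 0. Mrps12 (chr7:28739641-28741820), the decoding-centre protein whose bacterial counterpart carries streptomycin resistance changes, had 11, 6, 11 and 2 counts, and Mrps5 (chr2:127587222-127606829), also conserved from bacteria, 14, 14, 19 and 10. Mrpl11 (chr19:4962306-4966995), a protein of the stalk base, had 4, 9, 3 and 1. Mrpl58 (chr11:115403752-115412674), a peptidyl-tRNA hydrolase also known as Ict1, had 3, 4, 13 and 2, and shares 2 bases with Ict1os. Mrps36 (chr13:100735955-100744659), whose product is known as a subunit of the 2-oxoglutarate dehydrogenase complex, had 3, 3, 3 and 1. In each of these 7 members replicate 4 had the fewest counts, and at such counts single-library values carry large counting error.

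Levels per length were tested against 1 TPM with limma on log2(TPM + 0.1), with Benjamini-Hochberg adjustment over 17203 genes. Of the 78 members, 38 were above 1 TPM (32.1% of all genes tested were) and none below (26.6%), and 40 were not called. Above were 19 of 22 members with at least 50 shared bases, where 58.2% of genes of that class were above and 15.7% below. Among members without shared bases 19 of 52 were above, against 18.7% of genes of their class above and 32.4% below. The 4 members sharing 2 to 24 bases were not called. At an unadjusted p under 0.05 limma put 3 members below 1 TPM (Mrpl23, Mrpl35 and Mrps35); after adjustment edgeR put 1 below and DESeq2 none, and limma with pseudocounts of 0.5 and 1 put 3 and 4 below. The median level was 15.2 TPM with at least 50 shared bases and 2.10 TPM with none, against 5.07 and 0.731 TPM over all genes with a count in these classes.

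By subunit as named, 26 of 49 large and 12 of 29 small subunit members were above 1 TPM. The name need not give the place of the protein. Mrps18a and Mrps36, described above, count as small here, and all other members were also placed by name alone. All 15 large subunit members with at least 50 shared bases and 4 of 7 small ones were above, with medians of 20.9 and 4.76 TPM. Without shared bases, 11 of 31 large and 8 of 21 small subunit members were above, with medians of 2.16 and 1.54 TPM. The difference between the subunits was not tested. On the log2(TPM + 0.1) scale, which understates low genes, Mrpl47 lay 8.55 over 1 TPM (limma, Benjamini-Hochberg adjusted p = 1.26e-11) and Mrps14 2.67 (limma, adjusted p = 1.14e-05). Mrpl33 lay 0.71 over it (limma, adjusted p = 0.163), Mrps11 0.66 (limma, adjusted p = 0.243) and Mrps27 0.55 (limma, adjusted p = 0.376), and none of these passed. Without replicate 4, Mrpl33 and Mrps27 passed, at 0.99 and 1.15 (limma, adjusted p = 0.0264 and 0.00796). Mrpl33 also passed with edgeR on all 4 libraries (0.87, edgeR, adjusted p = 0.0127). Mrpl9 lay 1.56 over 1 TPM (limma, adjusted p = 0.00729) and did not pass without replicate 3 (1.25, limma, adjusted p = 0.0607).

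**Figure D3:**
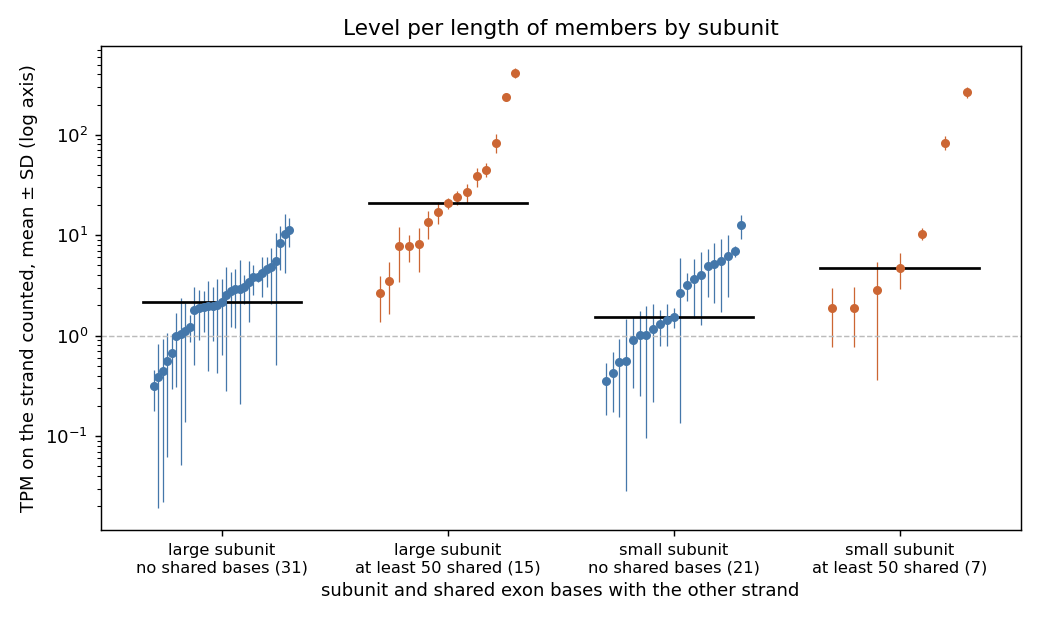
Mean TPM (log axis) of each member by subunit, as given by the gene name, and by shared exon bases. Points are members, vertical lines SD over 4 libraries, black bars group medians and the dashed line 1 TPM. Medians are 2.16 and 20.9 TPM in the large and 1.54 and 4.76 TPM in the small subunit, without and with at least 50 shared bases.

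Other genes of mitochondrial gene expression were counted from lists. Of 5 mitochondrial ribosomal proteins named outside the Mrp series 4 were above 1 TPM in the limma test, led by Gadd45gip1 with 2265, 2100, 2341 and 1817 counts (615 ± 109 TPM). Chchd1, without shared bases, was at 5.52 ± 2.42 TPM and Dap3, a GTP-binding small subunit protein, at 3.96 ± 0.325. Of 13 translation factors 6 were above and 2 below. Mtif3, the initiation factor, had 3008, 2945, 3259 and 2743 counts (419 ± 56.0 TPM) and shares 1505 bases with Gtf3a. Gfm2 and Mrrf, which act in ribosome recycling, were at 30.9 ± 5.24 and 23.6 ± 5.38 TPM. All 6 factors above 1 TPM share at least 50 bases with the other strand.

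Of 25 assembly and rRNA modification genes 8 were above 1 TPM and 4 below. Mrm1, a 2′-O-methyltransferase of the large ribosomal RNA, had 180, 192, 200 and 221 counts (49.5 ± 5.04 TPM), and shares no exon base with the other strand. Its level per length was above that of every member of that class, and its count was highest in replicate 4. Malsu1, an assembly factor of the large subunit, and Ybey, an endoribonuclease of ribosome assembly, were at 44.2 ± 18.4 and 35.4 ± 4.92 TPM. Of 10 transcription and RNA stability genes with a count 4 were above and 2 below. Slirp, the partner of Lrpprc in mRNA stability, was at 868 ± 125 TPM and shares 945 bases with Snw1. Mterf2 was at 15.6 ± 3.74 TPM, and Pnpt1, an RNA-degrading enzyme with no shared bases, had 28, 30, 30 and 4 counts. Of the mitochondrial aminoacyl-tRNA synthetases 7 of 20 were above 1 TPM and 3 below.

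Nuclear genes of oxidative phosphorylation, whose complexes also hold the proteins made by mitochondrial ribosomes, and cytosolic ribosomal protein genes were counted for comparison. Of 81 nuclear oxidative phosphorylation genes with a count 49 were above 1 TPM and 1 below, and of 86 cytosolic ribosomal protein genes 79 and 2. Without shared bases the median was 4.49 TPM for oxidative phosphorylation and 23.2 TPM for cytosolic ribosomal protein genes, against 2.10 TPM for the members. These medians are descriptions, and the difference between lists was not tested. The lists were chosen with earlier results of these data known.

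Spread between replicates was tested with edgeR, which sets each gene's quasi-dispersion against the trend. None of the 20 members that passed its expression filter was called after Benjamini-Hochberg adjustment, and percent called among all 4190 genes was 0. That filter sets a minimum in every library, so members with few counts in replicate 4 were left out before the test. None of the 7 members more than 1 lower (log2) in replicate 4, described below, was among the 20. At an unadjusted p under 0.05 there were 1 member and 268 genes. The member was Mrpl48, with a Benjamini-Hochberg adjusted p of 0.741 in edgeR. A limma-trend fit also called none of the 20, and edgeR without the expression filter called 1 of 78.

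Members without shared bases had fewer counts in replicate 4 than in the other libraries. Their summed counts were 443, 506 and 501 in replicates 1 to 3 and 241 in replicate 4, so that replicate 4 stood at 0.499 times the mean of the others (95% interval 0.433 to 0.572, counting error only). Replicate 4 alone had the lowest count in 31 of the 52 members and alone the highest in none, and replicates 1 to 3 alone had the lowest in 6, 4 and 2. This ranking was not counted over all genes without shared bases, so it is not read as particular to the members. In replicate 4, 10 of all 78 members were at 0, against 2, 0 and 2 in replicates 1 to 3. Of all 50600 genes, 13705, 13900 and 14083 had a count in replicates 1 to 3 and 12398 in replicate 4. The ratio of summed counts in replicate 4 to the mean of the others was 0.532 for large and 0.452 for small subunit members without shared bases. Total counts without CT010467.1 were 1857055 in replicate 4 and 1785767 to 1935713 in the others. The cause of the lower counts in replicate 4 was not tested, and counts here are not read as expression. In bulk samples fewer cells of a type and less RNA per cell cannot be told apart. Other differences between the libraries were not tested either.

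Members with at least 50 shared bases were not lower in sum. Their counts in replicate 4 were 1.03 times the mean of the others (interval 1.01 to 1.06), and those of the genes opposite them 1.12 times. Without Mrpl47 and Mrps25 the members of this class stood at 1.17 times. Among all genes without shared bases the ratio in replicate 4 was 0.636. Among cytosolic ribosomal protein genes without shared bases it was 0.292, from 5921, 7187 and 7585 counts to 2012, and among those of oxidative phosphorylation 0.328, from 844, 1001 and 892 to 299. T cell markers moved with it: all 9 had their lowest count in replicate 4, where their sum was 0.289 times that of the others, and 8 of the 9 have no exon base opposite another gene. Their part in the result was not tested.

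**Figure D4:**
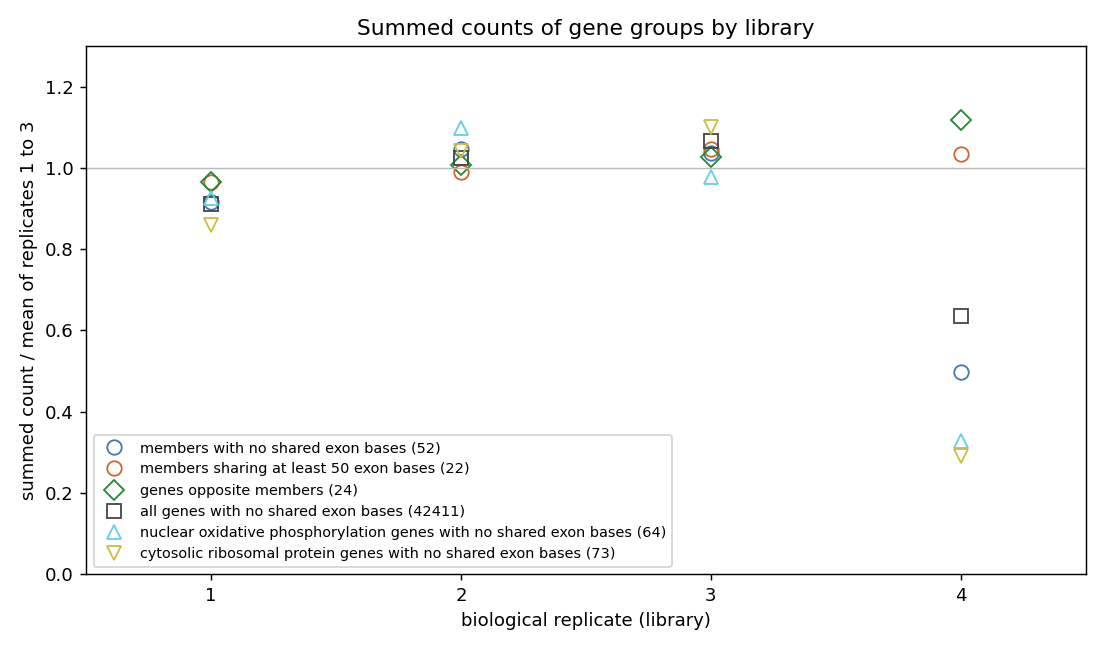
Summed counts of gene groups in each library, divided by the mean of replicates 1 to 3, with the number of genes in brackets. In replicate 4 members without shared bases stand at 0.499 and members with at least 50 shared bases at 1.03; cytosolic ribosomal protein and oxidative phosphorylation genes without shared bases stand at 0.292 and 0.328.

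Gene by gene, replicate 4 was set against the mean of the other libraries in log2 CPM, for the 29 members whose count reached 10 in every other library. More than 1 lower were 7 members (28.0% of 5463 genes were) and more than 1 higher none (2.16%). Without shared bases these were 4 of 11, against 55.9% of genes of that class lower and 1.18% higher, with a median difference of -0.83 for the members and -1.24 for the genes. With at least 50 shared bases they were 2 of 17, against 9.52% lower and 2.89% higher, with medians of -0.08 and -0.06. With no filter 38 of 78 members were more than 1 lower, and with a limit of 20 counts 1 of 16. The shares over all genes were not counted under these limits, so neither number is read as particular to the members. The filter used only the other libraries. Applied to replicates 1 to 3 in turn, the same rule found 0, 0 and 2 of 24 members more than 1 lower. Over all genes the shares were 1.21%, 0.917% and 5.48%. There the limit of 10 counts covers replicate 4, so members with fewer counts in it are left out and the sets differ.

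The 7 members were chosen for naming after their values were seen, apart from those already described. Mrpl3, a large subunit protein with a bacterial counterpart, had 20, 13 and 15 counts in replicates 1 to 3 and 0 in replicate 4. Mrpl45 had 14, 13, 12 and 2 counts, a difference of -2.49 on the log2 scale, and Mrpl42 had 18, 17, 18 and 3, a difference of -2.43. Mrps15, the only small subunit member of the 7, had 12, 23, 19 and 4 counts (-2.05). Mrpl12 was at -1.76, Mrpl9 at -1.30 and Mrpl33 at -1.09. Among the opposite genes tested in the same way the highest difference was that of B430218F22Rik, which shares 601 bases head to head with Mrps30 and had 658, 761, 759 and 1545 counts (1.03), followed by Gga3 opposite Mrps7 (0.99). Mrps30 itself had 5, 13, 3 and 3 counts. Among the opposite genes that passed the same limit of 10 counts the lowest difference was -0.15, for Nr2c2. Ndufb5 and Mrps11, which did not pass it, had 0 and 2 counts in replicate 4.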

How the data were processed

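Fragments were assigned to GENCODE M13 exons by the authors with featureCounts 1.4.6-p4 and summed per gene, per the file headers. Both ends of a pair had to align, and the strand setting was 1. Alignment names contain star2, and the aligner version is not given in the sources used here. Per the labels the assembly is mm10. The deposited values are raw counts, and the deposited exon length of each gene was also used. Total RNA is named in the labels, and poly(A) RNA in the title of the protocol they link to.

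Symbols were matched by gene ID for 50376 of 50600 genes. Exons were merged from the tables' coordinates and bases shared with exons on the other strand were summed. TPM was computed as count over length, scaled per library. Levels were tested with limma 3.58.1 (pseudocount 0.1 TPM, moderated one-sample test against 1 TPM, two-sided, genes with a count), and spread with edgeR 4.0.16 (quasi-likelihood, TMM, default filter), both with Benjamini-Hochberg adjustment over all genes tested and a threshold of 0.05. Both were tested on simulated data. Other tools were R 4.3.3, DESeq2 1.42.0, scipy 1.17.1 and Python 3.11.15. CPM for replicate differences had a prior of 0.5. Intervals of count ratios are exact conditional binomial at 95% and cover counting error only. Depth was 1804217 to 2711948 counts, and a count of 0 allows up to 3 counts, or 1.11 to 1.66 CPM.

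Named members were the 8 with the highest TPM, the 8 with the highest opposite genes, the 6 highest without shared bases and 10 with known roles. Up to 3 genes of each other list were named, by TPM. The members and lists were chosen with earlier results of these data known. Alternatives were other pseudocounts, levels, filters, scalings, overlap limits and tools, and each library left out in turn.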

Additional observations from a re-analysis of the deposited data

Results flagged for a closer look

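Of 49 values examined by Dixon's criterion for a single distant sample, 1 exceeded its critical value at the 95% level. Tcp1, the gene opposite Mrpl18, had 1087 CPM in replicate 3 and 1463 to 1528 CPM in the other libraries, a gap of 0.853 of the range. Its counts were 2640, 2822, 2948 and 3244, and replicate 3 held 776235 counts of CT010467.1 in its total. Chance gives about 1 such value in 20 groups.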

How the results depend on the processing

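No paired analysis was possible because the libraries form 1 group. The number of members above 1 TPM was 29 to 46 over the alternatives at that level, and 32 to 50 with each library left out in turn. The number below 1 TPM, 0 as reported, was 3 at a pseudocount of 0.5, 4 at a pseudocount of 1, 1 each with TMM factors, DESeq2 size factors and edgeR, 10 at a level of 2 TPM (with 28 above it), and 0 to 2 in leave-one-out fits. Members called for spread numbered 1 without the expression filter and 0 in the leave-one-out fits. Members more than 1 lower in replicate 4 numbered 38 of 78 with no filter and 1 of 16 with at least 20 counts in the other libraries. In leave-one-out they numbered 8 to 10, with no share over all genes counted in any of these settings. Those more than 1 higher numbered 1 each with TMM factors, with no filter and on totals without CT010467.1, an alternative chosen after seeing the data, and 0 to 1 in leave-one-out. Members with counts in an opposite gene numbered 12 with at least 200 shared bases, of 12 members, 12 of 13 where no other gene is opposite, and 21 to 22 in leave-one-out. Fewer members could be counted under these limits; for the other changes the cause was not tested.

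Members not called against 1 TPM changed sign as follows, in log2 over the level. Mrpl11 was at 0.074 with edgeR, 0.16 with DESeq2 and -0.72 to 0.26 in leave-one-out fits. Mrpl58 was at 0.14, 0.15 and -0.53 to 0.23 in the same fits. Mrps18a was at 0.012 with DESeq2 and -1.03 to 0.345 in leave-one-out fits. The positive leave-one-out value was that without replicate 4 in each of the 3. At a level of 2 TPM, Mrpl33 was at -0.22, Mrps27 at -0.38, Mrps36 at -0.59 and Mrps5 at -0.38. The median difference of replicate 4 over all genes was -0.20 on total counts, 0.01 with TMM factors and -0.15 without CT010467.1, and that of the members -0.31, -0.10 and -0.26.

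Of the 52 members without shared bases 37 had a mean count under 10, so that their values carry large counting error.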
